A study of Mus musculus with 2 samples.

Results

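Imiquimod (IMQ), the cream that induces psoriasiform inflammation in mouse skin, is an agonist of Toll-like receptor 7, and the transcripts of that receptor and of its partners were followed here across the cell types of IMQ-treated skin. The set held 10 of the 31053 genes listed for these libraries, taken by symbol: the nucleic acid sensors Tlr7, Tlr8, Tlr9, Tlr3 and Tlr13, the sensors of bacterial surface components Tlr2 and Tlr4, the chaperone Unc93b1, the adaptor Myd88 and the transcription factor Irf5. All 10 were found, and each was listed once.

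TLR7 and TLR8 recognise single-stranded RNA, TLR9 recognises CpG DNA, TLR3 recognises double-stranded RNA and TLR13 recognises bacterial ribosomal RNA, all inside endosomes, whereas TLR2 and TLR4 sit at the cell surface and recognise bacterial lipoproteins and lipopolysaccharide. UNC93B1 carries the endosomal receptors out of the endoplasmic reticulum. MyD88 is the adaptor of all of these receptors except TLR3, which signals through TRIF, and IRF5 is a transcription factor that acts downstream of MyD88. TLR7 is best known from monocytes, macrophages and plasmacytoid dendritic cells, and the last are known for TLR9 as well.

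The data were 2 single-cell RNA-seq libraries of wild-type C57BL/6 mice, 1 of the dermis and 1 of the epidermis, and no untreated library was analysed here. Per the labels, the mice were 10 weeks old and received IMQ on the ear for 5 days, and dead cells were removed by cell sorting. The study's methods describe a CD45+ sort of dermal cells and a sort of all live epidermal cells, whereas the labels name only the removal of dead cells. The number of animals behind each library was not given in the sources used here. With 1 library per tissue there is no replicate, so every interval below is an exact 95% interval that covers counting error alone, and the tissue and the library cannot be told apart.

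After cells with under 200 genes or over 10% mitochondrial unique molecular identifiers (UMIs) were left out, 4747 of 5376 dermal cells and 4173 of 5258 epidermal cells remained. Median depth was 7010 UMIs per dermal cell and 25918 UMIs per epidermal cell, and 45 barcodes occurred in both libraries. Each cell was assigned to a type by 8 marker genes per type, and the names carry "-like" because they rest on those markers. In the dermis, 1245 cells were monocyte-like, 934 macrophage-like, 611 neutrophil-like, 354 fibroblast-like, 270 T cell-like, 258 basophil-like, 129 dendritic cell-like, 116 mast cell-like and 38 endothelial-like. In the epidermis, 3101 cells were keratinocyte-like, 518 T cell-like, 196 Langerhans-like and 51 monocyte-like. Ptprc, which encodes CD45, was detected in 64.0% of the kept dermal cells, in 28.2% of the fibroblast-like ones and in 18.4% of the endothelial-like ones. Whether a CD45+ sort was applied to this library was not tested.

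Tlr7 lies on chromosome X of GRCm38 from 167304929 to 167330558 on the minus strand, next to Tlr8 at 167242696 to 167264329 on the same strand. Tlr13 is also on chromosome X, from 106143204 to 106160493 on the plus strand. Tlr9 (chromosome 9, 106222598 to 106226883, plus strand) and Myd88 (chromosome 9, 119335934 to 119341411, minus strand) share an autosome. The remaining members are Tlr3 on chromosome 8 (45395665 to 45411080, minus), Tlr2 on chromosome 3 (83836272 to 83841767, minus), Tlr4 on chromosome 4 (66827584 to 66930284, plus), Unc93b1 on chromosome 19 (3935186 to 3949340, plus) and Irf5 on chromosome 6 (29526625 to 29541871, plus). All are annotated as protein coding. Myd88 overlaps Slc22a14 on its own strand, so reads in the shared stretch could have been assigned to either gene. Tlr3, Irf5 and Myd88 also overlap the antisense genes Gm45542, Tnpo3 and Acaa1a, and whether strand was used in counting was not given in the sources used here.

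Tlr7 transcripts were found almost entirely in the dermal library, which held 372 Tlr7 UMIs against 4 in the epidermal library. As counts per 1e+06 UMIs (CPM), the dermal level was 242-fold the epidermal one (interval 93.7 to 892). The same direction held for each of the other members. Tlr8 gave 71 dermal UMIs and 0 epidermal ones and was at least 61.5-fold higher in the dermis, with the epidermal level set at 3 UMIs. Tlr13 (618 and 7 UMIs) was 230-fold higher, Tlr4 (376 and 7 UMIs) 140-fold, Tlr2 (2419 and 81 UMIs) 77.7-fold and Unc93b1 (7656 and 445 UMIs) 44.7-fold. Irf5 (2735 and 599 UMIs) was 11.9-fold higher in the dermis. The members closest to parity between the tissues were Tlr3 (97 and 60 UMIs), with a ratio of 4.20 (3.02 to 5.90), and Myd88 (2286 and 3381 UMIs), with a ratio of 1.76 (1.67 to 1.85). Tlr9 was rare throughout, with 11 dermal UMIs and 1 epidermal UMI, a ratio of 28.6 (4.16 to 1231). These ratios compare libraries that hold different cell types and, per the study's methods, were sorted differently. Keratinocyte-like cells held 99716834 of the 105033363 epidermal UMIs. Between dermal and epidermal monocyte-like cells, the Tlr7 ratio was 3.08 (0.54 to 122), on 1 epidermal UMI, and was not resolved. For the same cells the ratio was 0.92 for Tlr2 (0.61 to 1.45), 1.87 for Unc93b1 (1.32 to 2.76) and 2.04 for Irf5 (1.21 to 3.75).

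Within the dermis, macrophage-like and monocyte-like cells carried most of the Tlr7. Macrophage-like cells held 143 UMIs in 120 of 934 cells, a level of 14.9 CPM (12.5 to 17.5). Monocyte-like cells held 140 UMIs in 125 of 1245 cells, a level of 13.0 CPM (10.9 to 15.3). The ratio between these types was 1.14 (0.90 to 1.46), so their order was not resolved at this depth. Neutrophil-like cells came next, with 25 UMIs in 24 of 611 cells and 7.83 CPM (5.06 to 11.6). Both the macrophage-like level (1.90-fold, 1.24 to 3.03) and the monocyte-like level (1.66-fold, 1.08 to 2.65) were above it. Together these 3 types made up 58.8% of the kept dermal cells and 58.4% of the dermal UMIs, and they held 308 of the 372 Tlr7 UMIs, or 82.8% (78.6 to 86.5). Cells that were assigned to no type held another 41, or 11.0% (8.03 to 14.7).

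The other dermal types with at least 50 cells carried little Tlr7, except that the mast cell-like interval was wide. T cell-like cells held 7 UMIs (2.66 CPM), basophil-like cells 4 UMIs (3.37 CPM), fibroblast-like cells 6 UMIs (1.47 CPM) and dendritic cell-like cells 1 UMI (0.515 CPM). The macrophage-like level was 10.1-fold the fibroblast-like one (4.53 to 28.0), 5.60-fold the T cell-like one (2.65 to 14.2) and 28.9-fold the dendritic cell-like one (5.10 to 1149). The neutrophil-like level was 5.31-fold the fibroblast-like one (2.13 to 15.8). Against the basophil-like level it was 2.32-fold (0.80 to 9.17), a step that was not resolved. Mast cell-like cells, which were shallow at a median of 823.5 UMIs, held 2 Tlr7 UMIs, and the resulting 13.5 CPM had an interval of 1.64 to 48.9. The 38 endothelial-like cells held 0. Plasmacytoid dendritic cell-like cells numbered 9, with 2 Tlr7 UMIs in 2 cells (18.4 CPM, 2.22 to 66.4), which leaves their place in the order unresolved.

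**Figure D1:**
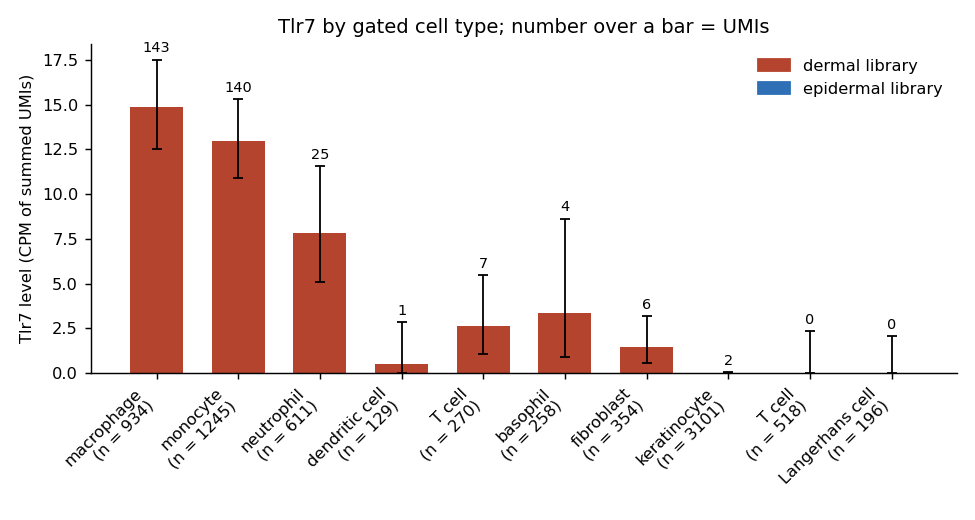
Tlr7 level (bars, in CPM of summed UMIs, from 0) by gated cell type, with exact 95% counting intervals for 7 dermal and 3 epidermal types, and the number over each bar is the UMI count. Macrophage-like and monocyte-like cells of the dermis sit at 14.9 and 13.0 CPM, neutrophil-like cells at 7.83 CPM, and keratinocyte-like cells of the epidermis at 0.0201 CPM.

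Detection per cell followed the same order in macrophage-like, monocyte-like and neutrophil-like cells, and it depends on depth. Tlr7 was seen in 12.8% of macrophage-like cells (10.8 to 15.2; median depth 8488 UMIs), 10.0% of monocyte-like cells (8.43 to 11.8; 8270 UMIs) and 3.93% of neutrophil-like cells (2.53 to 5.79; 3864 UMIs). In fibroblast-like cells, a type not known for Tlr7, the share was 1.41% (0.460 to 3.27) at a median of 9659 UMIs. The dendritic cell-like share was 0.775% (0.0196 to 4.24) at 14787 UMIs, on 1 cell, and these intervals overlapped. The part of other cells' RNA in either share was not tested. The T cell-like share was 2.22% at 7831.5 UMIs. With every cell thinned to 2000 UMIs, the shares became 2.84% in macrophage-like, 2.69% in monocyte-like, 1.61% in neutrophil-like and 0.198% in fibroblast-like cells. Monocyte-like and macrophage-like cells thus lay close together at equal depth, and neutrophil-like cells below them. No dermal cell held more than 4 Tlr7 UMIs.

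In the epidermis, the 4 Tlr7 UMIs fell in 2 keratinocyte-like cells, 1 monocyte-like cell and 1 macrophage-like cell. The 196 Langerhans-like cells (median depth 7974 UMIs) held 0, and a limit of 3 counts allows a Tlr7 UMI in up to 1.53% of them. The 518 T cell-like cells (2351 UMIs) also held 0, which by the same limit allows a UMI in up to 0.579% of them. These limits concern cells with a UMI, not cells that express the gene. Keratinocyte-like cells, the deepest type at a median of 32034 UMIs, had Tlr7 in 0.0645% of 3101 cells. As levels, the exact intervals of the Langerhans-like and T cell-like cells reached 2.09 and 2.37 CPM.

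Tlr8, the neighbour of Tlr7 on the X chromosome, had most of its UMIs in the same types. Macrophage-like cells held 36 of its 71 UMIs (3.74 CPM, 2.62 to 5.18), monocyte-like cells 23 (2.13 CPM) and neutrophil-like cells 3 (0.939 CPM). The macrophage-like level was 1.75-fold the monocyte-like one (1.01 to 3.10). T cell-like, basophil-like and mast cell-like cells held 0 Tlr8 UMIs. Tlr9, the sensor of CpG DNA, was too rare to place: its 11 dermal UMIs included 3 each in macrophage-like and monocyte-like cells, 1 each in neutrophil-like, dendritic cell-like and dermal Langerhans-like cells, and 0 in the 9 plasmacytoid dendritic cell-like cells.

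**Figure D2:**
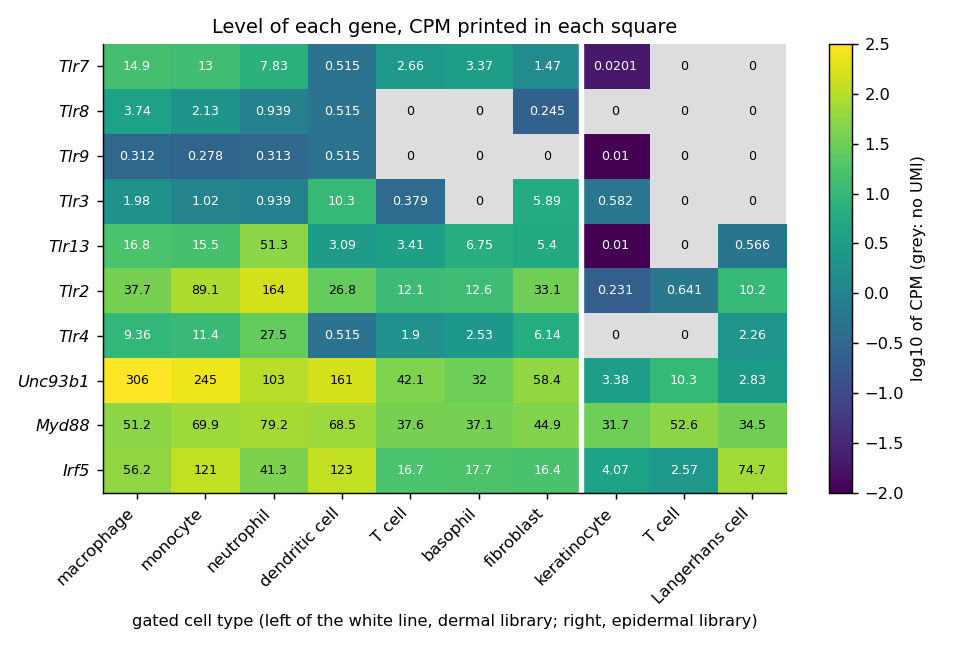
Level of each of the 10 genes (vertical axis) in 7 dermal and 3 epidermal gated types (horizontal axis), with the CPM printed in each square, colour on a log10 scale and grey for 0 UMIs. Within a gene, Tlr7 and Tlr8 are highest in macrophage-like and monocyte-like cells, Tlr13, Tlr2 and Tlr4 in neutrophil-like cells, and Tlr3 in dendritic cell-like and fibroblast-like cells.

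Tlr13, Tlr2 and Tlr4, the sensors of bacterial products, had another order, with neutrophil-like cells at the top. Tlr13 stood at 51.3 CPM in neutrophil-like cells (164 UMIs, 43.8 to 59.8), at 16.8 CPM in macrophage-like cells and at 15.5 CPM in monocyte-like cells. The neutrophil-like level was 3.05-fold the macrophage-like one (2.44 to 3.81). Tlr13 was detected in 21.3% of neutrophil-like cells although they were shallower than the macrophage-like cells, of which 15.2% were positive.

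Tlr2 stood at 164 CPM in neutrophil-like cells (150 to 178), 89.1 CPM in monocyte-like cells and 37.7 CPM in macrophage-like cells, so that each step exceeded its counting error (neutrophil-like over monocyte-like 1.84-fold, 1.65 to 2.05). Fibroblast-like cells at 33.1 CPM (27.8 to 39.2) lay near the macrophage-like cells for this gene. They also held all 8 neutrophil markers, at a summed 733 CPM, against 18781 CPM in neutrophil-like cells. The part of neutrophil RNA in their Tlr2 level was not tested. In the epidermis, Tlr2 reached 97.1 CPM in monocyte-like cells (23 UMIs), 10.2 CPM in Langerhans-like cells (18 UMIs) and 0.231 CPM in keratinocyte-like cells.

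Tlr4 stood at 27.5 CPM in neutrophil-like cells (22.1 to 33.9), 11.4 CPM in monocyte-like cells and 9.36 CPM in macrophage-like cells. The neutrophil-like level was 2.41-fold the monocyte-like one (1.81 to 3.20), while the monocyte-like and macrophage-like intervals overlapped. Fibroblast-like cells held 25 Tlr4 UMIs (6.14 CPM), and dendritic cell-like cells held 1.

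Tlr3, the sensor that does not use MyD88, was the member least tied to macrophage-like, monocyte-like and neutrophil-like cells, which held 34.0% of its dermal UMIs (24.7 to 44.3). For the other members with at least 20 dermal UMIs, these 3 types held between 65.5% (Myd88) and 87.3% (Tlr8). Dendritic cell-like cells stood at 10.3 CPM (20 UMIs in 10 cells, 6.29 to 15.9), and without the single richest cell, which held 6 UMIs, at 7.28 CPM. Fibroblast-like cells stood at 5.89 CPM (24 UMIs in 24 cells, 3.77 to 8.77), 2.98-fold the macrophage-like level of 1.98 CPM (1.57 to 5.76). The 38 endothelial-like cells held 8 UMIs (13.7 CPM), 6.92-fold the macrophage-like level (2.62 to 16.6). In the epidermis, 58 of 60 Tlr3 UMIs fell in keratinocyte-like cells, at 0.582 CPM (0.442 to 0.752).

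**Figure D3:**
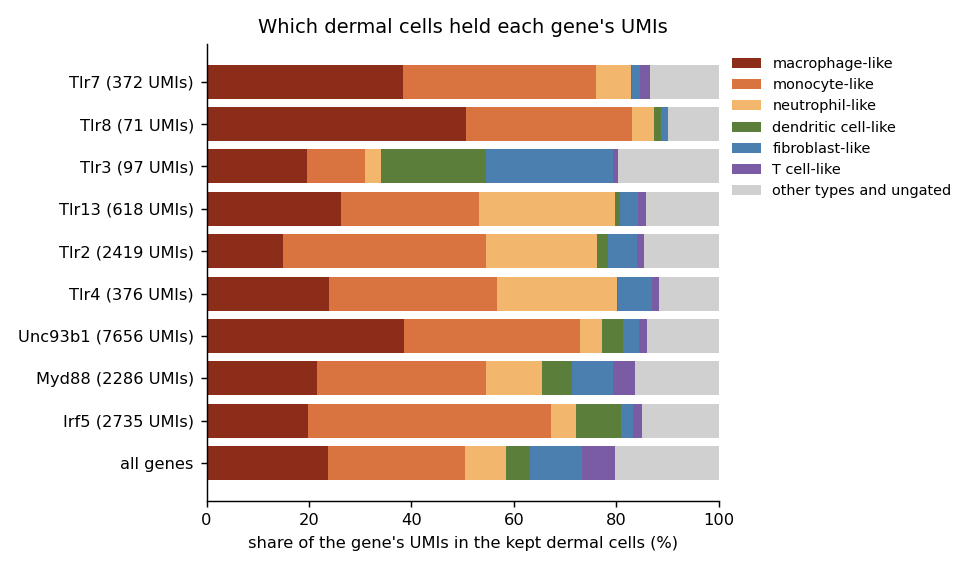
Share of each gene's UMIs in the kept dermal cells (horizontal axis, in percent) by gated type, for 9 of the genes and for all genes together, with other types and ungated cells in grey. Macrophage-like, monocyte-like and neutrophil-like cells, with 58.4% of all dermal UMIs, hold 82.8% of the Tlr7 UMIs and 34.0% of the Tlr3 UMIs.

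Unc93b1, the chaperone on which the endosomal receptors depend, was highest in macrophage-like, monocyte-like and dendritic cell-like cells among the dermal types with at least 50 cells. Macrophage-like cells stood at 306 CPM (295 to 317), with Unc93b1 detected in 78.6% of cells, and monocyte-like cells at 245 CPM (236 to 255), detected in 77.0%. Dendritic cell-like cells, in which 1 Tlr7 UMI was counted, stood at 161 CPM (144 to 180), detected in 73.6%. Neutrophil-like cells stood at 103 CPM (91.9 to 114), mast cell-like cells at 74.5 CPM (11 UMIs), fibroblast-like cells at 58.4 CPM, T cell-like cells at 42.1 CPM and basophil-like cells at 32.0 CPM. Each step among the first 4 types exceeded counting error: macrophage-like over monocyte-like 1.25-fold (1.18 to 1.32), monocyte-like over dendritic cell-like 1.52-fold, and dendritic cell-like over neutrophil-like 1.57-fold. The next step, neutrophil-like over mast cell-like (1.38-fold, 0.76 to 2.79), was not resolved. The 9 plasmacytoid dendritic cell-like cells stood at 386 CPM (42 UMIs in 8 cells).

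Epidermal Langerhans-like cells held few Unc93b1 UMIs. They gave 5 UMIs in 196 cells, or 2.83 CPM (0.918 to 6.60), which was 0.84-fold the keratinocyte-like level of 3.38 CPM (0.27 to 1.97) and 0.02-fold the level of dermal dendritic cell-like cells (0.01 to 0.04). The 29 dermal Langerhans-like cells stood at 113 CPM (47 UMIs). The summed level of the 8 macrophage markers was 2222 CPM in these dermal Langerhans-like cells and 511 CPM in the epidermal ones, with 6 of 8 markers detected and Folr2 and Cd163 at 0 in each, and the summed monocyte markers were at 508 and 13.6 CPM. In the 173 cells of the epidermal cluster named Langerhans-like as a whole, 0 Unc93b1 UMIs were counted. The part of other cells' RNA in the difference was not tested.

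Myd88, the shared adaptor, was counted in every type with at least 50 cells, between 31.7 and 79.2 CPM. In the dermis it ran from 79.2 CPM in neutrophil-like cells through 69.9 CPM in monocyte-like, 68.5 CPM in dendritic cell-like and 51.2 CPM in macrophage-like cells to 44.9 CPM in fibroblast-like, 37.6 CPM in T cell-like, 37.1 CPM in basophil-like and 33.9 CPM in mast cell-like cells (5 UMIs). The 38 endothelial-like cells stood lower, at 22.2 CPM (13 UMIs). The epidermal types lay in a similar range, with 59.1 CPM in monocyte-like, 52.6 CPM in T cell-like, 34.5 CPM in Langerhans-like and 31.7 CPM in keratinocyte-like cells. Keratinocyte-like cells thus lacked nearly all Tlr7 UMIs but held 3166 Myd88 UMIs, with Myd88 detected in 57.9% of cells.

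Irf5, the transcription factor, was highest in dendritic cell-like and monocyte-like cells. These stood at 123 CPM (108 to 140) and 121 CPM (114 to 127), with a ratio of 1.02 (0.88 to 1.17). Macrophage-like cells stood at 56.2 CPM, 0.47-fold the monocyte-like level (0.42 to 0.52), although their Tlr7 levels were not resolved from each other. Neutrophil-like cells stood at 41.3 CPM and fibroblast-like cells at 16.4 CPM. Epidermal Langerhans-like cells, with 0 Tlr7 UMIs, held 132 Irf5 UMIs (74.7 CPM, 62.5 to 88.5; 41.3% of cells), 18.3-fold the keratinocyte-like level of 4.07 CPM (15.0 to 22.4).

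**Figure D4:**
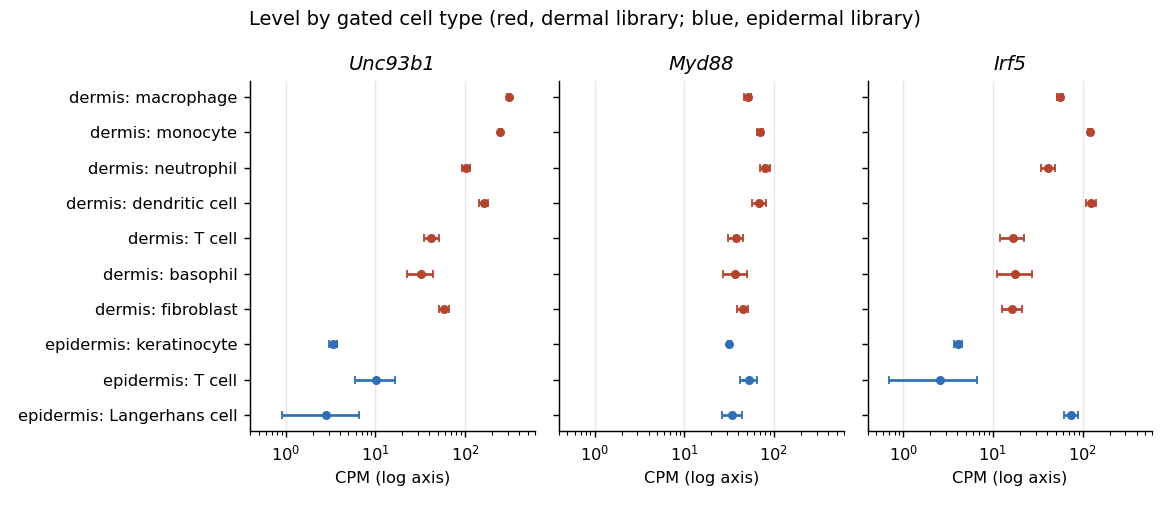
Levels of Unc93b1, Myd88 and Irf5 in 7 dermal types (red) and 3 epidermal types (blue), as points in CPM on a log axis with exact 95% counting intervals. Unc93b1 runs from 2.83 CPM in epidermal Langerhans-like cells to 306 CPM in dermal macrophage-like cells, whereas Myd88 stays between 31.7 CPM in keratinocyte-like and 79.2 CPM in neutrophil-like cells.

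Each type was also set against all other gated cells of its library, over the 13027 dermal genes with at least 20 UMIs, of which 9 were members, since Tlr9 fell below that minimum. A gene past 2-fold in either direction was counted, as a rule of size with no test. In macrophage-like cells 3 members were at least 2-fold higher, namely Tlr7 (2.01-fold, 1.60 to 2.51), Tlr8 (3.39-fold, 2.01 to 5.77) and Unc93b1 (2.03-fold, 1.93 to 2.13), against 4.84% of all genes tested, and 0 members were at least 2-fold lower, against 21.7%. The Tlr7 value sat at the limit, a log2 ratio of 1, and its log2 ratio became 0.97 with the study's stricter cell filter, 0.98 with 1 marker more per cell and 0.58 when whole clusters were named. In monocyte-like cells Irf5 was higher (2.64-fold) and Tlr3 lower, against 2.13% of genes higher and 24.2% lower. In neutrophil-like cells Tlr13 (4.34-fold), Tlr2 (3.28-fold) and Tlr4 (3.42-fold) were higher, against 6.85% of genes, and Tlr3, with 3 UMIs, had a ratio of 0.355 (0.0718 to 1.07), against 36.8% of genes lower. With median-of-ratios scaling the neutrophil-like split of all genes became 15.2% higher and 14.2% lower, Myd88 joined the higher members and Tlr3 was no longer past 2-fold.

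Dendritic cell-like cells had Tlr3 higher (5.08-fold), against 7.27% of genes, but a whole cluster of 40 cells named by the same markers held 0 Tlr3 UMIs, with a log2 ratio of -1.30. Only 55.0% of that cluster was dendritic cell-like by the single-cell gate, and it left out most of the gated dendritic cell-like cells. The gated dendritic cell-like cells had Tlr7, Tlr8, Tlr13, Tlr2 and Tlr4 lower, against 23.6%. Fibroblast-like cells had Tlr3 higher (2.89-fold), against 21.5% of genes, and Tlr7, Tlr8, Tlr13, Unc93b1 and Irf5 lower, against 15.6%. Tlr2 joined these lower members when the cells of highest doublet score were removed (16.3% of genes lower). It also did so with median-of-ratios scaling (19.7% lower). T cell-like cells had 8 of the 9 members lower, all but Myd88, against 22.1%, but Tlr3 was called there on 1 UMI and Tlr8 on 0 UMIs, where it was at least 1.74-fold lower with the T cell-like level set at 3 UMIs. Tlr8 was also called on 1 UMI each in dendritic cell-like and fibroblast-like cells. With a pseudocount of 5 UMIs, Tlr8 was past 2-fold lower in none of these 3 types, and T cell-like cells had 6 members lower, against 10.1% of genes. The log2 ratio of Tlr8 in dendritic cell-like cells then turned to 0.59, as it did to 0.55 with named clusters. The median log2 ratio of the members tested was -0.09 in macrophage-like, 0.43 in monocyte-like, -0.27 in neutrophil-like, -1.20 in dendritic cell-like, -1.60 in fibroblast-like and -2.23 in T cell-like cells, the last being -2.19 with Tlr8 at its bound. The corresponding medians over all genes tested were -0.12, -0.26, -0.71, -0.11, 0.12 and 0.06. Basophil-like cells had the same 8 members lower as T cell-like cells, against 33.7% of genes, with Tlr8 and Tlr3 at 0 UMIs. Mast cell-like cells had Tlr13, Tlr2, Tlr4, Unc93b1 and Irf5 lower, against 14.1%, with Tlr13 and Tlr4 at 0 UMIs. Tlr2 rested there on 2 UMIs, Irf5 on 3 and Unc93b1 on 11, of which 1 cell held 7. In these cells 3 UMIs amount to 20.3 CPM, above the 15.3 CPM of Tlr13 and 9.31 CPM of Tlr4 in all kept dermal cells. Their counts of 0 therefore do not show them lower. With members at 0 UMIs set at their bound, the members' median log2 ratio went from -1.32 to 0.39. With a pseudocount of 5 UMIs, 3 members were lower in basophil-like cells and 0 in mast cell-like cells, against 9.12% and 1.42% of genes.

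In the epidermis 13427 genes were tested, 5 of them members. Langerhans-like cells had Tlr2 (17.9-fold) and Irf5 (17.1-fold) higher, against 14.7% of genes, while Tlr3 had 0 UMIs in them and is given no fold. Keratinocyte-like cells had Tlr2, Unc93b1 and Irf5 lower, against 24.0%. Monocyte-like cells, only 51 in number, had Tlr2 (190-fold, 111 to 315), Unc93b1 (34.9-fold, 23.4 to 50.3) and Irf5 (10.9-fold, 5.90 to 18.4) higher, against 31.6% of genes. Tlr3, at 0 UMIs there, was also past the limit through the pseudocount and is given no fold. This type numbered 35 cells with 1 marker more in the gate and 0 when whole clusters were named, so its folds rest on the single-cell gate. T cell-like cells had Unc93b1 higher (2.60-fold, 1.47 to 4.27), against 30.1% of genes.

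Signal of the members in lymphoid, stromal and neutrophil-like cells has to be read beside the markers of other types. Dermal neutrophil-like cells held all 8 macrophage markers at a summed 955 CPM and all 8 monocyte markers at 3475 CPM. Single markers ran from 3.44 to 392 CPM in the first list and from 32.6 to 1826 CPM in the second. The 27 epidermal neutrophil-like cells held the monocyte markers at 2506 CPM and the macrophage markers at 15.1 CPM. Epidermal keratinocyte-like cells held these lists at 3.73 and 6.52 CPM. Whether neutrophil-like cells express part of the monocyte list themselves was not tested. Dermal fibroblast-like cells held all 8 macrophage and all 8 monocyte markers, at 699 and 645 CPM. The part of other cells' RNA in the members' levels in these types was not tested. Dermal T cell-like cells held all 8 macrophage markers at a summed 813 CPM, and epidermal T cell-like cells held 5 of 8 at a summed 18.0 CPM, with Mrc1, Folr2 and Cd163 at 0; the summed monocyte markers were at 576 and 70.5 CPM. Unc93b1 was 4.10-fold higher in the dermal T cell-like cells (2.42 to 7.43), Irf5 6.51-fold (2.37 to 24.9) and Tlr2 18.9-fold (3.16 to 771), with 1 Tlr2 UMI in the epidermal ones. Myd88 went the other way, at 0.71-fold (0.53 to 0.97). The part of myeloid RNA in the first 3 of these differences was not tested.

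The large types were then divided by genes outside the set, with divisions chosen after seeing the data. Among macrophage-like cells, the 433 with a UMI of Folr2 or Cd163, which mark resident-type macrophages, stood at 18.2 CPM for Tlr7, and the 501 without stood at 10.6 CPM, a ratio of 1.71 (1.19 to 2.49). Median depth was 11035 and 7175 UMIs in these subsets. Tlr4 was also higher with Folr2 or Cd163 (11.9 and 6.15 CPM, ratio 1.93, 1.21 to 3.18). Tlr13 gave 15.8 and 18.2 CPM (ratio 0.87, 0.63 to 1.20), and Tlr8 gave 4.46 and 2.84 CPM (ratio 1.57, 0.75 to 3.44), neither of which was resolved.

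Among monocyte-like cells, the 982 with a UMI of Chil3, a gene of classical monocytes, stood at 13.5 CPM for Tlr7 and the 263 without at 10.8 CPM, a ratio of 1.24 (0.78 to 2.06) that was not resolved at this depth. Tlr4 was 2.15-fold higher in the Chil3-positive cells (1.18 to 4.28) and Unc93b1 1.12-fold (1.02 to 1.25).

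Among the 129 dendritic cell-like cells, Tlr3 followed Xcr1 and Clec9a, markers of conventional type 1 dendritic cells. The 19 cells with a UMI of either gene held 15 of the 20 Tlr3 UMIs, at 41.9 CPM (23.5 to 69.2). The 43 cells with Ccr7, a gene of migratory dendritic cells, held 0, and the remaining 67 held 5 UMIs, at 5.24 CPM. The Xcr1 or Clec9a cells were 8.01-fold above the remaining cells (2.77 to 28.2) and at least 8.80-fold above the Ccr7 cells, with the latter set at 3 UMIs. Their 15 UMIs lay in 6 cells, 6 of them in 1 cell, and without that cell the level was 26.6 CPM, 5.08-fold above the remaining cells (1.53 to 19.3) and at least 5.59-fold above the Ccr7 cells. Unc93b1 was also highest in them, at 316 CPM against 138 CPM in the remaining cells (2.28-fold, 1.76 to 2.96) and 108 CPM in the Ccr7 cells (2.93-fold, 2.15 to 4.01). Tlr2 had 3 UMIs in the Xcr1 or Clec9a cells, 14 in the Ccr7 cells and 35 in the rest, at 8.39, 22.2 and 36.7 CPM.

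**Figure D5:**
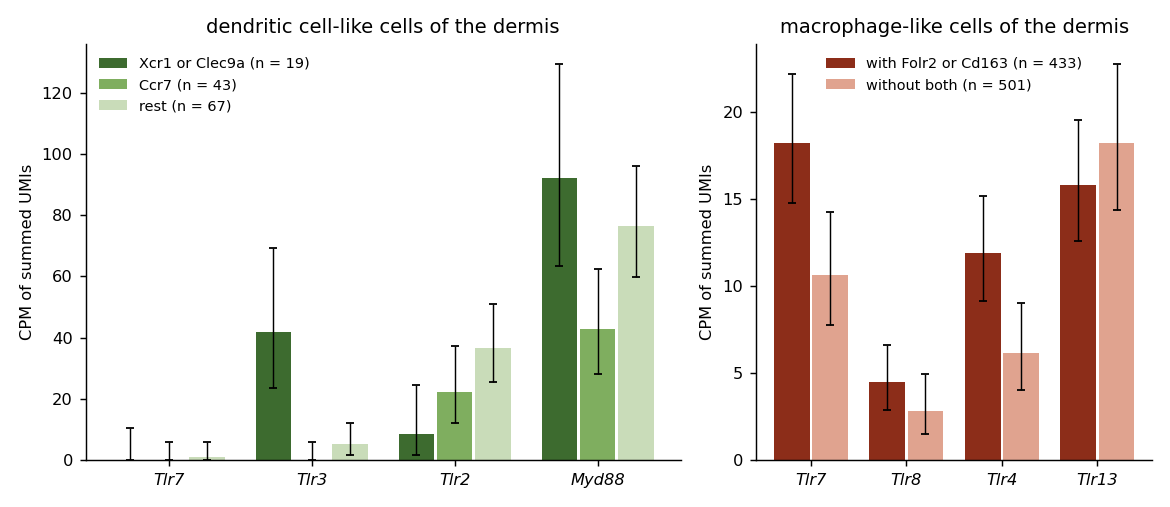
Levels of Tlr7, Tlr3, Tlr2 and Myd88 in 3 subsets of dermal dendritic cell-like cells (left) and of Tlr7, Tlr8, Tlr4 and Tlr13 in 2 subsets of dermal macrophage-like cells (right), as bars in CPM of summed UMIs with exact 95% counting intervals. Tlr7 stands at 18.2 CPM in macrophage-like cells with Folr2 or Cd163 and 10.6 CPM in those without, and Tlr3 at 41.9 CPM in dendritic cell-like cells with Xcr1 or Clec9a.

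Partner genes were compared between macrophage-like cells with a Tlr7 UMI (120 cells) and without (814 cells). The cells with Tlr7 were deeper, at a median of 12355 against 8026 UMIs, and detection of a rare transcript depends on depth. Unc93b1 stood at 387 CPM in cells with Tlr7 and 289 CPM in those without (ratio 1.34, 1.22 to 1.46), and at 369 and 287 CPM without the richest cell of each. Thinned to 2000 UMIs, 46.2% and 40.0% of these cells had Unc93b1. Myd88 gave 51.9 and 51.0 CPM (ratio 1.02, 0.80 to 1.29) and Irf5 gave 56.7 and 56.1 CPM (ratio 1.01, 0.80 to 1.26), so neither differed beyond counting error. In monocyte-like cells with Tlr7 (125 cells) and without (1120 cells), Unc93b1 gave 260 and 243 CPM (ratio 1.07, 0.95 to 1.20). Myd88 gave 76.6 and 69.0 CPM (1.11, 0.89 to 1.38) and Irf5 126 and 120 CPM (1.05, 0.88 to 1.24). None of these was resolved. Tlr2 was higher with Tlr7 (120 and 85.0 CPM, ratio 1.41, 1.18 to 1.68). In macrophage-like cells Tlr2 went the other way without being resolved (29.8 and 39.3 CPM, ratio 0.76, 0.55 to 1.03). In neutrophil-like cells (24 with and 587 without Tlr7), the ratio was resolved for neither Unc93b1 (0.597 to 1.60) nor Tlr2 (0.807 to 1.65).

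Another 44 genes of Toll-like receptor signalling were listed by role, and 41 could be tested in macrophage-like cells. Of these, 6 were at least 2-fold higher than in the other gated cells, 6 were at least 2-fold lower and 29 lay between, with a median log2 ratio of 0.03, against -0.12 over all genes. Of all genes tested, 4.84% were at least 2-fold higher and 21.7% at least 2-fold lower in these cells. Among co-receptors, Cd36, a scavenger receptor that works with TLR2, was higher (log2 3.19), whereas Cd14 (-1.71) and Lbp (-3.38), which hand lipopolysaccharide to TLR4, were lower. Of 12 genes of receptor folding, transport and processing, the proteases Lgmn (2.36) and Ctsb (1.36), of the kind that cleave endosomal receptors, were higher. Other receptors past 2-fold were Tlr1 (1.28) and Tlr5 (1.0), and Tlr6 stood at 0.17.

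Among 12 adaptors and kinases, Ticam2, an adaptor of TLR4, was higher (1.40) and the kinase Irak2 lower (-1.26). None of the 5 transcription factors passed 2-fold in either direction, with Irf7 at 0.03, Rela at -0.23, Irf8 at -0.37 and Nfkb1 at -0.77. Of 5 inhibitors, Nfkbia (-1.72), Tnfaip3 (-1.17) and Sigirr (-2.44) were at least 2-fold lower in macrophage-like cells. By the same count, monocyte-like cells had 1 of the 41 genes higher and 3 lower, against 2.13% and 24.2% of all genes. Neutrophil-like cells had 6 higher and 10 lower, against 6.85% and 36.8%, and dendritic cell-like cells 3 higher and 14 lower, against 7.27% and 23.6%.

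The genes whose levels over the 8 dermal types with at least 50 cells were most like those of Tlr7 were listed by Pearson's r of log2(CPM + 1) among 8505 genes with at least 200 UMIs. They were Aoah (0.98), an enzyme that inactivates lipopolysaccharide, Ube2a (0.95), Chmp5 (0.94), Bbip1 (0.94), Lsm10 (0.92), Rnf169 (0.91), Fam111a (0.90), Cd93 (0.89), F13a1 (0.89) and Ccl24 (0.89). With log2(CPM + 10), 8 of these 10 were listed again, and with Spearman's rho 5 were. These measures take no account of how far a gene's level varies between types. From dendritic cell-like to macrophage-like cells, Tlr7 ran from 0.515 to 14.9 CPM and Aoah from 0.515 to 43.1 CPM. Chmp5 ran only from 59.2 to 83.2 CPM, so a high r does not mean a like contrast. Among the members r was 0.54 for Tlr8, 0.43 for Unc93b1, 0.34 for Tlr4, 0.32 for Tlr2, 0.23 for Tlr13, 0.11 for Irf5, 0.02 for Myd88 and -0.60 for Tlr3. The 8 points share 1 library and differ in depth, and the mast cell-like point rests on 2 Tlr7 UMIs, so these values are a description only.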

How the data were processed

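Single-cell RNA-seq (10x Genomics 3′ v3 chemistry per the labels) was performed on dermal and epidermal cells of IMQ-treated skin. The authors deposited raw UMI counts per gene and cell, which per the file headers came from CellRanger 3.0.2, and the submitters' processing notes name mm10, Cell Ranger and CASAVA. A cell was kept where it showed 200 genes or more and its mitochondrial UMIs did not exceed 10%. In the dermis 13 cells fell under 200 genes and 628 were over 10% mitochondrial UMIs, and in the epidermis 1085 cells were over it. The kept cells held 40392866 dermal and 105033363 epidermal UMIs.

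Each of 15 lists held 8 markers. A marker was positive where its share of a cell's UMIs reached the average of its mean levels in both libraries, and a cell took the list with most positive markers if at least 3 were positive and no other list tied. Langerhans-like cells also needed Cd207 or H2-M2. These thresholds were set after seeing the data, and the members, marker lists and pathway lists were chosen with earlier results of these data known. The gate left 719 dermal and 190 epidermal cells unassigned, and 632 of the 4028 gated dermal cells led by 1 marker. Levels are summed UMIs divided by all UMIs of the same cells (CPM) with exact Poisson intervals, shares have exact binomial (Clopper-Pearson) intervals, and ratios of counts have exact conditional intervals. Counts of 0 were set at 3 for limits. Types were compared with all other gated cells for genes with at least 20 UMIs and types with at least 50 cells, adding 0.5 UMI to each side for the log2 ratio; a change of 2-fold was counted, with no test. Thinned shares are the share expected over all draws of 1000 or 2000 UMIs, leaving out shallower cells. Levels are compared within a gene, since 3′ capture differs between genes. The genes named were the 10 members, pathway genes past 2-fold with examples that were not, and the 10 genes most like Tlr7.

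Doublets were kept, since the automatic Scrublet call marked 3 dermal and 38 epidermal cells; an alternative removed the 180 dermal and 139 epidermal cells of highest score. Other alternatives were a filter of 200 to 5000 genes and at most 5% mitochondrial UMIs, 1 marker more, named clusters, another scaling, pseudocount, fold and count minimum, and barcodes of both libraries left out, the last chosen after seeing the data. Coordinates are those of GENCODE M21 on GRCm38, which mm10 names, and 30934 of 31053 gene IDs were matched. Python 3.11.15, numpy 2.4.6, pandas 2.3.3, scipy 1.17.1, scanpy 1.11.5 and matplotlib 3.10.9 were used. Ratios against the other gated cells were tested on simulated data for the types with at least 50 cells, except basophil-like and mast cell-like cells. Those types were not run, and mast cell-like cells held 147680 UMIs, fewer than the 236754 of epidermal monocyte-like cells. In that simulation 34.2% of unchanged genes passed 2-fold in epidermal monocyte-like cells, and 76% of 4-fold changes were recovered. Of unchanged genes, 10.9% passed in epidermal Langerhans-like, 11.1% in T cell-like and 6.86% in keratinocyte-like cells, and 1.1% to 7.50% in the dermal types run. The epidermal monocyte-like cells held few UMIs, so that a gene at 0 there could pass 2-fold through the pseudocount. The share of all genes called in them is to be read with these limits.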

Additional observations from a re-analysis of the deposited data

Results flagged for a closer look

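In T cell-like cells, Myd88 and Unc93b1 lay on opposite sides of the other gated cells in the 2 tissues. The log2 ratio of Myd88 was -0.64 in the dermis and 0.73 in the epidermis, and that of Unc93b1 was -2.28 in the dermis and 1.42 in the epidermis. Under median-of-ratios scaling the epidermal Unc93b1 value was 0.98, no longer past 2-fold, and at 3-fold it was not counted either. The other gated cells were mostly myeloid in the dermis and keratinocyte-like in the epidermis. The difference between the tissues was not tested, since each has 1 library.

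Tlr7 was also counted in dermal cells that entered no comparison between cell types. The 719 cells without a gate held 41 Tlr7 UMIs, or 7.55 CPM, above the 0.552 CPM that a count of 0 would allow. These UMIs were part of the dermal totals. The 629 dermal cells removed by the filters held 10 Tlr7 UMIs, or 11.6 CPM, above a limit of 3.47 CPM.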

How the results depend on the processing

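No paired analysis was possible because there was a single library of the dermis and of the epidermis, and for the same reason no replicate could be left out. The share of cells with a Tlr7 UMI was lower at reduced depth and under a stricter call: thinned to 1000 UMIs, thinned to 2000 UMIs and with at least 2 UMIs required, it was 1.56%, 2.84% and 2.14% in macrophage-like cells, 1.33%, 2.69% and 1.04% in monocyte-like cells, and 0.713%, 1.61% and 0.164% in neutrophil-like cells. With clusters named in place of single cells, Tlr7 stood at 15.7 CPM in monocyte-like cells, and with 1 marker more in the gate the 3 myeloid types held 78.5% of the dermal Tlr7 UMIs. The count of members at least 2-fold higher in macrophage-like cells became 1 with the study's filter, against 5.33% of genes. There Tlr7 and Unc93b1 each came to a log2 ratio of 0.97. At 3-fold the count was also 1, against 1.65% of genes. With named clusters, 1 member (Tlr2) was lower in macrophage-like cells, against 22.9% of genes. In monocyte-like cells 0 members were higher and 0 lower at 3-fold, against 0.622% and 16.8% of genes. Under median-of-ratios scaling 2 (Tlr2 and Irf5) were higher in them, against 4.01%. In neutrophil-like cells 3 members (Tlr8, Tlr3 and Unc93b1) were lower after removal of the highest Scrublet scores, against 41.7% of genes. At 3-fold, with a pseudocount of 5 UMIs or under median-of-ratios scaling, 0 were lower there, against 15.4%, 15.8% and 14.2% of genes. Pathway genes higher in macrophage-like cells numbered 2 at 3-fold and 6 at 2-fold, beside 1.65% and 4.84% of all genes. Under median-of-ratios scaling the epidermal Langerhans-like split of all genes became 18.1% higher and 15.8% lower, from 14.7% and 21.6%.

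Directions reversed in a few cases. With named clusters, Tlr3 in dendritic cell-like cells had a log2 ratio of -1.30. There a cluster of 40 cells with 0 UMIs stood in place of the 129 gated cells, which held 20 UMIs. Only 55.0% of that cluster carried the dendritic cell-like gate, so most of the 129 cells were left out of it. Tlr8 in dendritic cell-like cells, on 1 UMI in the gated cells, had 0.55 with named clusters and 0.59 with a pseudocount of 5 UMIs. The same pseudocount gave 1.11 for Tlr13 and 1.76 for Tlr4 in mast cell-like cells, 1.05 for Tlr8 and 0.63 for Tlr3 in basophil-like cells, and 2.17 for Tlr3 in epidermal Langerhans-like cells; it adds more than these cells held. Leaving out barcodes of both libraries moved no level. Levels under 3 UMIs and types under 50 cells are limited by depth.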
